A study of Mus musculus with 4 samples.

Results

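The genes described here are 6 parts of the mouse apoptosis machinery: the death receptors Fas and Tnfrsf10b, the initiator caspases Casp8 and Casp9, the scaffold Apaf1 and the executioner caspase Casp6. They were taken by symbol from the 32285 genes of 4 single-cell count matrices and followed across cell classes of the ovary and the 4 treatments. All 6 were found in the matrices. Mice of postnatal day 25 had PBS or saline as the control treatment, doxorubicin, doxorubicin combined with recombinant human anti-Müllerian hormone (AMH), or AMH without doxorubicin. The dose was 3 mg/kg for doxorubicin, as 2 weekly doses, and 0.75 mg/kg for AMH, and ovaries were collected 4 hours after the final doxorubicin dose. The strain and the route of dosing are not given in the sources used here. Each library pools ovaries of 5 animals, 1 ovary per animal, so there is 1 library per treatment and the spread between animals was not measured.

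Apoptosis is started by 2 routes that meet at the executioner caspases. In the extrinsic route a ligand on a neighbouring cell engages a death receptor, which gathers the adaptor Fadd and Casp8, and Casp8 then cleaves itself and the executioners. In the intrinsic route cytochrome c leaves the mitochondria and joins Apaf1 in the apoptosome, the wheel-shaped complex that activates Casp9. In the ovary these routes are known from the atresia of follicles and from the loss of oocytes and granulosa cells after chemotherapy. Doxorubicin is an anthracycline that traps topoisomerase II on DNA and activates the transcription factor p53, and Fas, Tnfrsf10b and Apaf1 are among the genes known to be induced by p53. AMH is a hormone of growing follicles that restrains the recruitment of primordial follicles.

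The matrices hold counts of UMIs, molecular tags that count each captured transcript once. The libraries held 7141 to 9478 cell barcodes and 138647495 to 178279122 UMIs, with a median of 9834.5 to 13575 UMIs per barcode, and any 2 libraries shared 11 to 24 barcodes. Cells were clustered jointly into 32 clusters, and clusters were named from marker genes. 10 named classes with at least 30 cells in every library were compared: granulosa, theca, stroma, adventitial fibroblast, smooth muscle, pericyte, blood endothelium, lymphatic endothelium, macrophage and surface epithelium. Each name means cells that resemble that type by these markers. No cluster met the rule for oocytes, and erythroid-like cells were kept apart as background for free RNA. UMIs were summed per class and library and are given as CPM, the share of that class's UMIs in that library scaled to 1000000. Values given in a row follow the order of the libraries: control, doxorubicin, doxorubicin+AMH, AMH. With 1 library per treatment no test between treatments was possible, and the intervals given are 95% counting intervals, which cover counting error only. A difference is called here when the ratio of CPM values, with 1 CPM added to each, is at least 1.5-fold in either direction. Genes had to average 5 CPM over the 4 libraries and hold 40 UMIs in a class to be called, and 50 of the 60 pairs of a gene and a class did so.

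Over the 10 classes, 11 of the 50 pairs were called higher and 1 lower in doxorubicin than in control. Among all genes and classes that passed the same filter, 4.18% were called higher and 6.41% lower. The 11 higher pairs were 3 for Fas, 3 for Tnfrsf10b, 2 for Apaf1, 2 for Casp9 and 1 for Casp6, and the counting interval of the ratio excluded 1 for 8 of them. 3 of the 11 passed the filter only through the doxorubicin library, where they are high: Tnfrsf10b in adventitial fibroblast and surface epithelium-like cells and Casp9 in macrophage-like cells. Of the 45 pairs that passed without that library, 8 were called higher and 1 lower. Casp8 was called in none of the 10 classes. The matching comparison under AMH, doxorubicin+AMH against AMH alone, had 4 pairs called higher and 4 lower, against 6.62% and 7.12% of all genes. These 2 comparisons share no library.

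**Figure D1:**
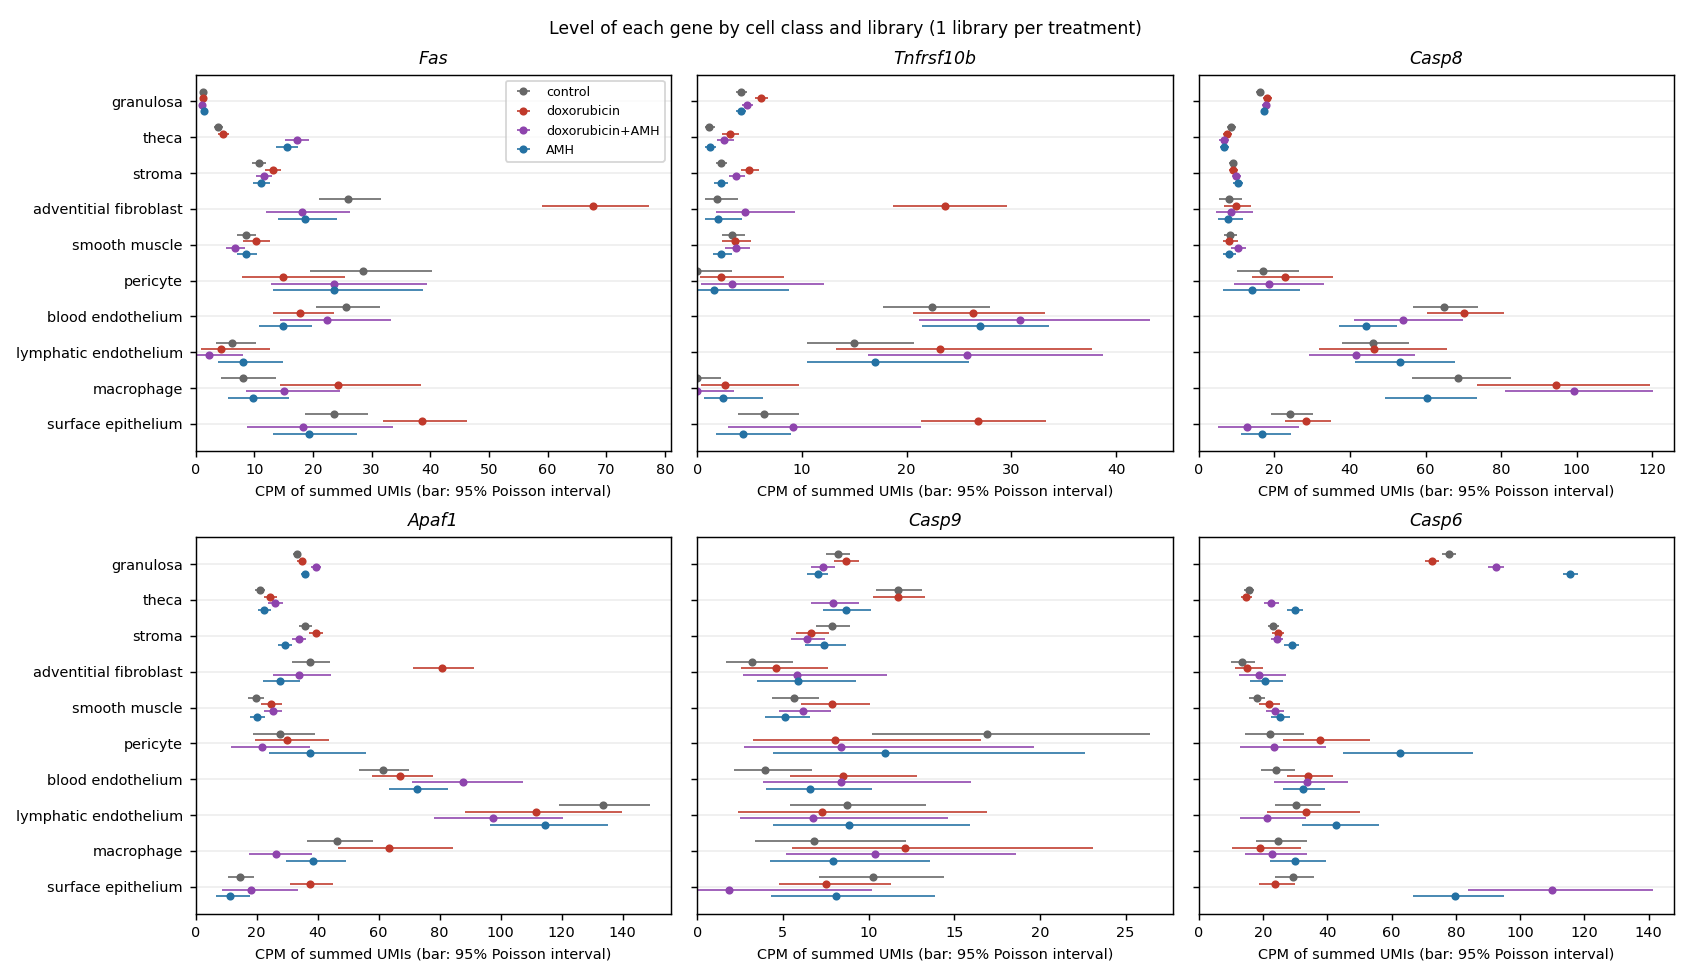
Level of each of the 6 genes (horizontal axis, CPM of summed UMIs) in 10 cell classes (vertical axis) and 4 libraries (colours, 1 point per library), with bars for the 95% Poisson interval of the count. In adventitial fibroblast-like cells the doxorubicin library stands apart for Fas (67.7 CPM), Tnfrsf10b (23.7 CPM) and Apaf1 (80.9 CPM), while Casp6 is higher in the AMH than in the control library in all 10 classes.

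Both receptors and Apaf1 were called higher in doxorubicin than in control in adventitial fibroblast-like cells, a single cluster led by Clec3b, Dpt and Igfbp3 with 305 control, 205 doxorubicin, 137 doxorubicin+AMH and 268 AMH cells. 6 of its 8 marker genes met the naming rule. All 8 stroma marker genes met it too, and in control they summed to 30340 CPM here and to 6677 CPM in stroma-like cells. The adventitial name was taken because its list had the most markers among the 10 leading genes. Fas, the receptor of Fas ligand, stood at 26.0 CPM (97 UMIs) in control, 67.7 CPM (220 UMIs) in doxorubicin, 18.2 CPM (28 UMIs) in doxorubicin+AMH and 18.6 CPM (57 UMIs) in AMH. Only the doxorubicin library was high, and its ratio to control was 2.61 (counting interval 2.04 to 3.35). Tnfrsf10b, the receptor of the ligand TRAIL, stood at 1.87 CPM (7 UMIs) in control, 23.7 CPM (77 UMIs) in doxorubicin, 4.55 CPM (7 UMIs) in doxorubicin+AMH and 1.96 CPM (6 UMIs) in AMH. It passed the filter in this class only through the doxorubicin library, since the other 3 held 20 UMIs in all, so its call is a description. The ratio of doxorubicin to control was 12.6 (5.85 to 32.5). Apaf1 stood at 37.5 CPM (140 UMIs) in control, 80.9 CPM (263 UMIs) in doxorubicin, 33.8 CPM (52 UMIs) in doxorubicin+AMH and 27.7 CPM (85 UMIs) in AMH. Its ratio of doxorubicin to control was 2.16 (1.75 to 2.67). Thus Fas and the scaffold of the apoptosome were both higher in doxorubicin in this class, where 7.89% of all genes tested were called higher (14.8% lower). The caspases of the set were not: Casp8 stood at 7.83 to 9.85 CPM and Casp6 at 13.4 to 20.6 CPM over the 4 libraries, and Casp9, at 3.21 to 5.88 CPM, did not pass the filter.

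The doxorubicin library was also the deepest in this class, with a median of 15241 UMIs per cell against 11924 in control, 10751 in doxorubicin+AMH and 10736 in AMH. With each cell thinned to 2000 UMIs, a Fas UMI was found in 12.3% of cells of the doxorubicin library (exact binomial interval 8.13 to 17.6) and in 3.95% of control (2.06 to 6.79). With AMH it was found in 3.68% (1.20 to 8.37, doxorubicin+AMH) and 1.504% (0.411 to 3.81, AMH alone). Without thinning the shares were 24.6%, 52.7%, 15.3% and 17.2% in library order. An Apaf1 UMI was found after thinning in 13.3% of doxorubicin cells (8.95 to 18.8) and 4.93% of control cells (2.79 to 8.01). For Tnfrsf10b the thinned shares were 5.42% (2.74 to 9.49) in doxorubicin and 0.329% (0.00833 to 1.82) in control, and 0 of 266 AMH cells had a UMI, which allows a share of up to 1.13%. At equal depth a larger share of cells thus held a Fas or an Apaf1 transcript in doxorubicin than in control. Erythroid-like cells, which should lack these genes, gave the background: after thinning, 0 of 54 in the doxorubicin library held a UMI of Fas, Tnfrsf10b or Apaf1, which allows a share of up to 5.56%, at a median of 6553 UMIs per cell. The doxorubicin shares of Fas and Apaf1 lay above that limit, and that of Tnfrsf10b did not, so its share could not be told from background at this depth.

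Fas and Apaf1 differed together in this class, and the 250 bases before their start sites are shown so that the promoters can be compared. They come from RefSeq on GRCm38.p6, at chr19:34290409-34290658 on the plus strand for Fas and chr10:91082744-91082993 on the minus strand for Apaf1, and capitals mark GGGCGG, the GC box.
Fas: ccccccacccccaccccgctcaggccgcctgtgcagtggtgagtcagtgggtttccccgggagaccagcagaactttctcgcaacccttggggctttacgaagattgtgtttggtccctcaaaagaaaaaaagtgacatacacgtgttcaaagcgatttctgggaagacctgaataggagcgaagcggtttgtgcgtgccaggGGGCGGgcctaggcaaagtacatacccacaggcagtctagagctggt
Apaf1: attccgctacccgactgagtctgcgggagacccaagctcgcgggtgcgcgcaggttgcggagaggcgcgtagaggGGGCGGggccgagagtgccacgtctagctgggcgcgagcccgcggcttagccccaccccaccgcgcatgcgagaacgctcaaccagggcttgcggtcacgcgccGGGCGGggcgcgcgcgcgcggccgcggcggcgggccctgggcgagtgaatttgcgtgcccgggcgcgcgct
The Fas window holds 1 GC box, 47 bases before the start site, and the Apaf1 window holds 2, at 175 and 71 bases before it. GGGCGG was searched on both strands and is found in 32.7% of 32851 promoter windows of this length. Neither window holds a match to the single-unit p53 consensus motif, searched on both strands, which 7.13% of the windows hold. GC content was 56.4% for Fas and 75.6% for Apaf1, with a median of 52.4% over all windows. A match is a run of letters and not a site shown to be bound. In the GENCODE M21 annotation of GRCm38, the assembly called mm10 in the submitters' processing notes, Fas lies at chr19:34290666-34327772 on the plus strand and Apaf1 at chr10:90989311-91082770 on the minus strand. Tnfrsf10b lies at chr14:69767472-69784411 on the plus strand. Fas overlaps Gm27818 on its own strand and Apaf1 overlaps Gm25390 on the other, and whether the counting used the strand is not given in the sources used here.

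Other genes fixed in the same lists were read in this class for context. Of 20 p53 reference genes that passed the filter, 19 were called higher in doxorubicin than in control, with a median log2 ratio of 2.92 beside -0.10 over all genes. Cdkn1a, the p53-induced cell cycle inhibitor, stood at 133, 1602, 284 and 159 CPM in library order. Mdm2, which degrades p53, stood at 37.5, 325, 31.8 and 33.29 CPM, Ccng1 at 24.4, 290, 16.9 and 19.6 CPM, and Bax, a pore-forming activator of the mitochondrial route, at 50.3, 247, 58.5 and 50.6 CPM. Of these 4 genes only Cdkn1a was called higher in doxorubicin+AMH than in AMH. The exception of the list was Sesn1, with a log2 ratio of -0.56, and the highest gene was Gdf15, with 4.46.

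In the adventitial class 7.89% of all genes were called higher in doxorubicin than in control and 14.8% lower. The lists that follow are small, so a single call is not read as a result about a list. Among 5 other death domain receptors and decoys that passed there, 2 were called higher and 1 lower, with a median log2 ratio of 0.55. Eda2r, the ectodysplasin A2 receptor and itself one of the p53 reference genes, was the highest at 3.66, and the nerve growth factor receptor Ngfr the lowest at -0.96. Casp12 (38.3, 16.9, 38.3 and 31.3 CPM) and Casp2 (6.42, 2.77, 8.44 and 3.92 CPM), caspases outside the 6, were called lower. Of the death receptor adaptors 0 of 5 that passed were called, with a median log2 ratio of -0.22. Of 6 apoptosome partners 1 was called higher, Cycs, which encodes cytochrome c, at 0.75. Of 5 inhibitor of apoptosis genes 1 was called lower, Birc5 (survivin) at -1.08. The list of caspase substrates also holds the apoptotic nuclease Dffb. Of its 7 genes that passed, 1 was called higher, Dffb itself, at 1.00. The only ligand gene that passed, Tnfsf12 (TWEAK), was lower at -0.65, while Fasl and Tnfsf10, the ligands of the 2 receptors, did not pass. Tnfsf10, which encodes TRAIL, passed in the endothelia, at 56.3, 63.1, 42.9 and 50.5 CPM in blood and 68.2, 36.3, 61.7 and 69.5 CPM in lymphatic endothelium-like cells, and Fasl passed in none of the 10 classes.

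**Figure D2:**
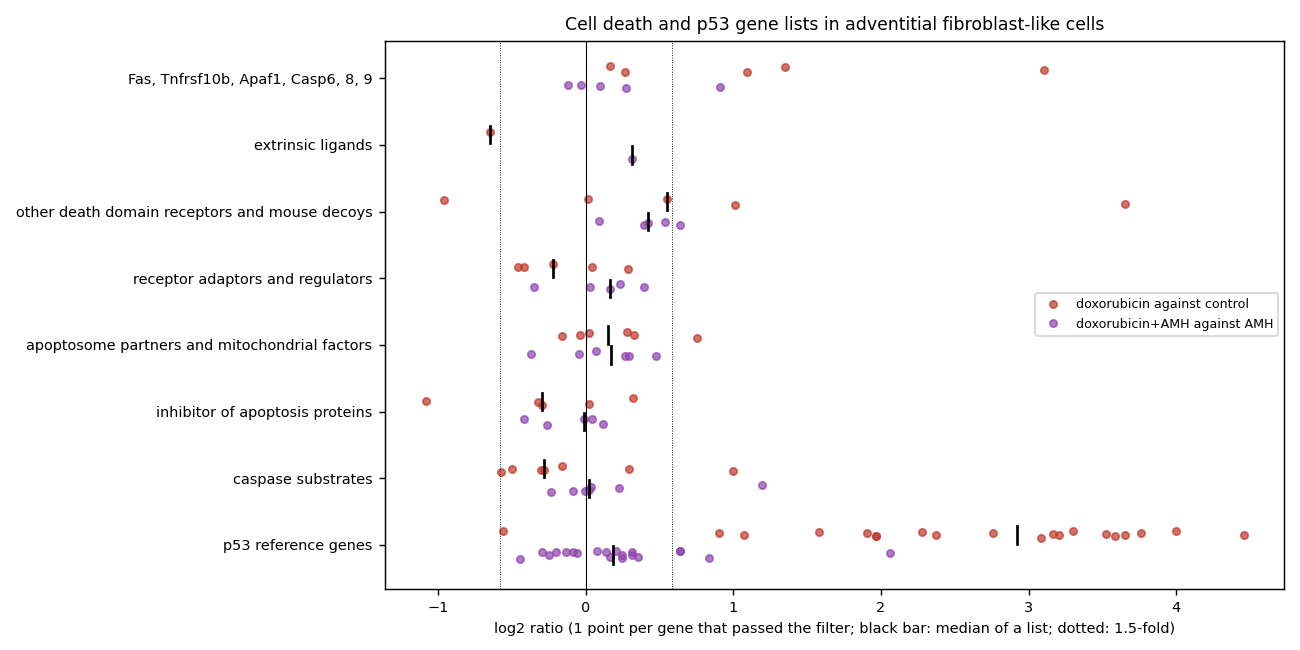
Log2 ratio (horizontal axis) of each gene that passed the filter in adventitial fibroblast-like cells, by gene list (vertical axis), without AMH (doxorubicin to control) and with AMH (doxorubicin+AMH to AMH), with a black bar at the median of each list of other genes. The p53 reference genes have a median of 2.92 without AMH and 0.18 with AMH. Of the 6 studied genes 5 are drawn, and Casp9, which did not pass the filter, is not. No median is drawn for them, since Tnfrsf10b passed only through the doxorubicin library.

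Under AMH the adventitial doxorubicin differences were smaller or not seen. The ratio of doxorubicin+AMH to AMH had a log2 value of -0.03 for Fas (-0.74 to 0.64) and 0.27 for Apaf1 (-0.24 to 0.80). For Tnfrsf10b it was 0.91 (-0.58 to 3.06) from 7 and 6 UMIs, and it was the only one of the 5 genes tested called, where 9.46% of all genes were called higher. Of the p53 reference genes 4 of 20 were called higher in this comparison, with a median log2 ratio of 0.18. Doxorubicin+AMH against doxorubicin therefore gave log2 ratios of -1.84 for Fas (-2.52 to -1.33), -2.15 for Tnfrsf10b (-3.74 to -1.27) and -1.24 for Apaf1 (-1.72 to -0.83), and 10.8% of all genes were called lower there. This last comparison shares the doxorubicin library with doxorubicin against control, so it does not give separate evidence on that library. Smooth muscle marker genes summed to 533, 356, 920 and 618 CPM in the class in library order, and their part in the result was not tested.

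Surface epithelium-like cells, from 2 clusters in which all 6 marker genes met the naming rule, had Tnfrsf10b, Apaf1 and Fas called higher in doxorubicin than in control. Tnfrsf10b stood at 6.35 CPM (21 UMIs) in control, 26.8 CPM (82 UMIs) in doxorubicin, 9.16 CPM (5 UMIs) in doxorubicin+AMH and 4.36 CPM (7 UMIs) in AMH, a doxorubicin ratio to control of 4.22 (2.59 to 7.18); here too it passed the filter only through the doxorubicin library. Apaf1 stood at 14.5 CPM (48 UMIs), 37.6 CPM (115 UMIs), 18.3 CPM (10 UMIs) and 11.2 CPM (18 UMIs) in library order, a ratio of 2.59 (1.84 to 3.71). Fas stood at 23.6 CPM (78 UMIs), 38.6 CPM (118 UMIs), 18.3 CPM (10 UMIs) and 19.3 CPM (31 UMIs), a ratio of 1.64 (1.22 to 2.21). For all 3 the doxorubicin library was the highest of the 4, and 6.27% of all genes in the class were called higher. Casp8, at 24.2, 28.5, 12.8 and 16.8 CPM, and Casp9, at 10.3, 7.52, 1.83 and 8.11 CPM, were not called in this comparison. Of 22 p53 reference genes 19 were called higher in the class, with a median log2 ratio of 2.70. The median UMI count per cell was 19055 in doxorubicin, 16764 in control and 8623 in doxorubicin+AMH.

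Under AMH this class rested on few cells, 36 in doxorubicin+AMH and 64 in AMH, and 16.3% of all genes were called higher. Log2 ratios of doxorubicin+AMH to AMH were 0.92 for Tnfrsf10b (-0.93 to 2.94), 0.66 for Apaf1 (-0.57 to 1.90) and -0.07 for Fas (-1.27 to 0.99), and every one of these intervals includes 0. Of the p53 reference genes 16 of 22 were called higher, with a median of 1.19. The cluster led by C3 and Slpi had 41, 39 and 34 cells in control, doxorubicin and AMH and 1 in doxorubicin+AMH, so the class there is the cluster led by Lgals7. In that cluster alone Tnfrsf10b stood at 6.55, 30.9, 7.73 and 2.57 CPM and Apaf1 at 13.9, 40.2, 19.3 and 14.1 CPM in library order. Fas stood there at 17.6 CPM (43 UMIs), 25.7 CPM (50 UMIs), 13.5 CPM (7 UMIs) and 10.3 CPM (8 UMIs). In the C3 and Slpi cluster, where Fas was higher, it stood at 40.6 CPM (35 UMIs) in control and 61.0 CPM (68 UMIs) in doxorubicin. The part of the mix of these clusters in the Fas call of the class was not tested. Erythroid marker genes summed to 13.01, 19.9, 11287 and 8.11 CPM in the class, high in the doxorubicin+AMH library alone, and their part in the result was not tested.

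**Figure D3:**
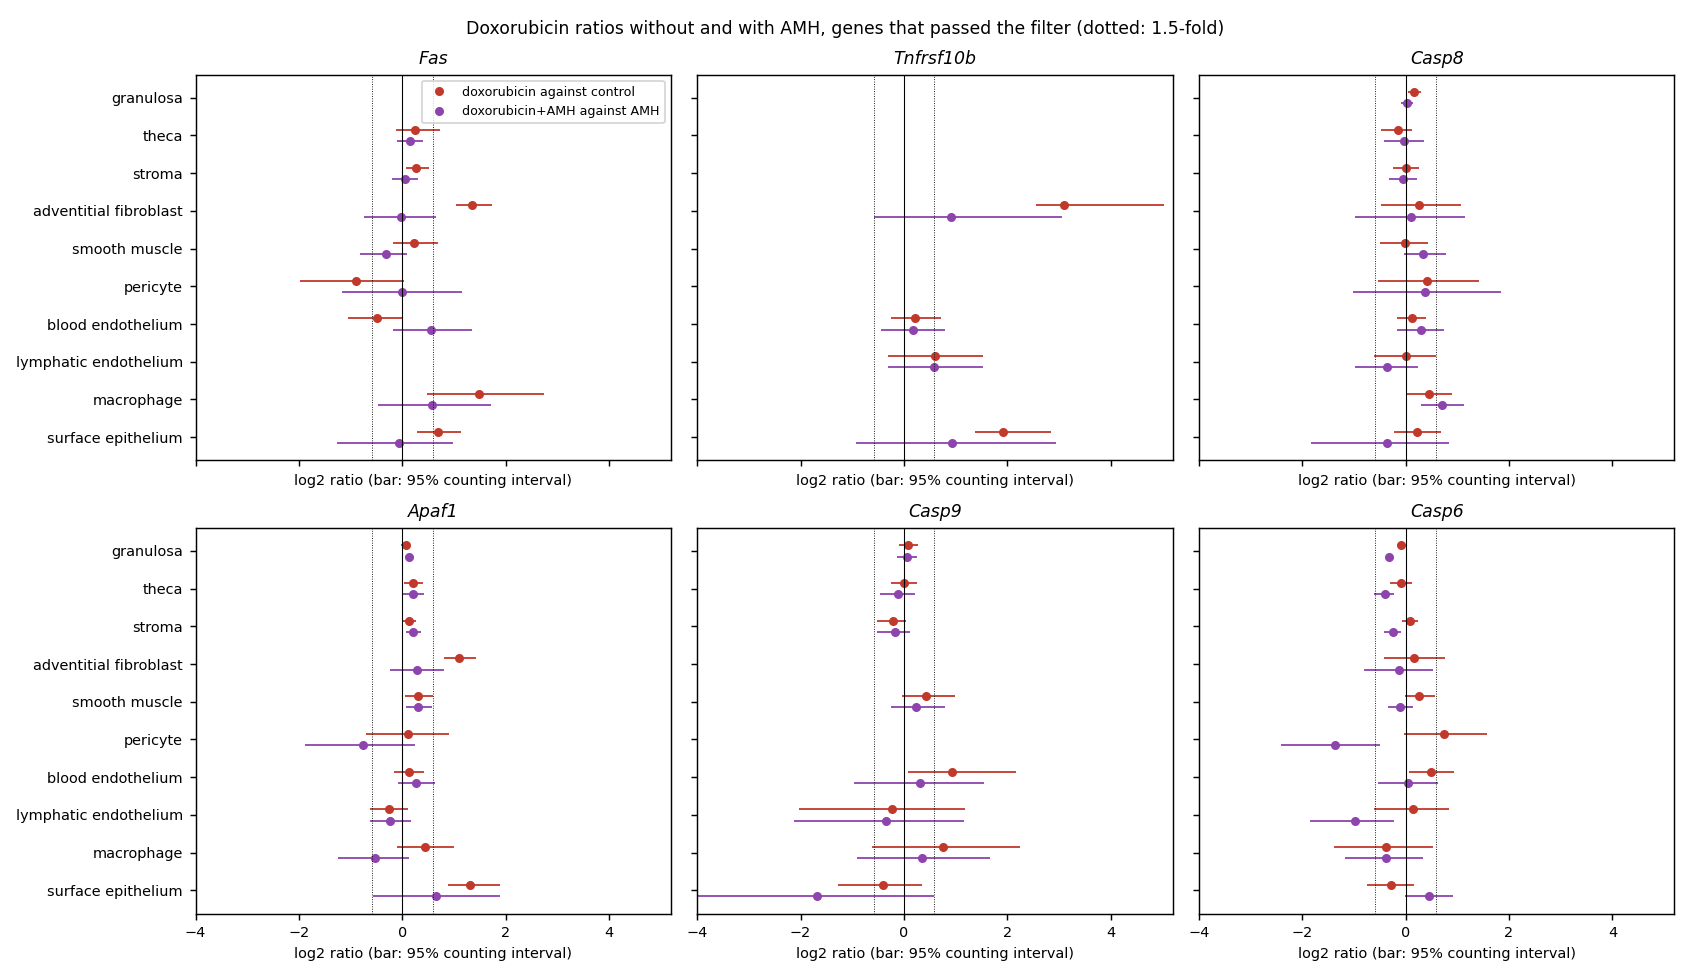
Log2 ratio of doxorubicin to control and of doxorubicin+AMH to AMH (horizontal axis) in each class (vertical axis) for the genes that passed the filter, with 95% counting intervals cut at the edges of the axis and dotted lines at 1.5-fold. Fas and Apaf1 in adventitial fibroblast-like cells lie past the line without AMH (1.35 and 1.09) and inside it with AMH (-0.03 and 0.27).

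Elsewhere the receptors showed class-specific levels. The mean CPM of Fas over the 4 libraries was highest in adventitial fibroblast-like cells (32.6), followed by surface epithelium (25.0), pericyte (22.6) and blood endothelium (20.2), and the ranges over libraries of each of these overlapped the next. The first place rests on the doxorubicin library: without it the mean was 20.9 CPM in adventitial fibroblast-like and 25.2 CPM in pericyte-like cells. Granulosa-like cells had the lowest, 1.17 to 1.44 CPM, below the range of every other class. In macrophage-like cells Fas stood at 8.05 CPM (13 UMIs) in control, 24.3 CPM (18 UMIs) in doxorubicin, 15.1 CPM (16 UMIs) in doxorubicin+AMH and 9.78 CPM (16 UMIs) in AMH. The doxorubicin ratio to control was 3.02 (1.40 to 6.70) on these few UMIs, beside 8.03% of all genes called higher in the class. The pericyte-like class was the only called pair in the other direction, with Fas at 28.5 CPM (32 UMIs) in control and 14.9 CPM (13 UMIs) in doxorubicin. Its interval included 1, and 8.67% of all genes in the class were called lower. Erythroid marker genes in the pericyte-like class summed to 48.1 CPM in control and 1292 CPM in doxorubicin, and their part in its doxorubicin calls was not tested.

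Stroma-like cells, the most numerous class, had Fas at 10.7, 13.2, 11.6 and 11.2 CPM, with no call. The clusters within the class were not alike. In the dividing stroma cluster led by Mxd3 and Hmmr, Fas stood at 6.72 CPM (32 UMIs) in control and 13.05 CPM (68 UMIs) in doxorubicin, and Tnfrsf10b at 2.73 CPM (13 UMIs) and 11.9 CPM (62 UMIs). Its log2 ratios were 0.86 for Fas (0.33 to 1.61) and 1.79 for Tnfrsf10b (1.25 to 3.11). In the Enpep cluster Fas stood at 7.25, 13.3, 11.4 and 7.83 CPM, a log2 ratio of doxorubicin to control of 0.79 (0.48 to 1.27). The other 3 stroma clusters had doxorubicin values at or below control: 16.7 against 19.2 CPM, 10.4 against 11.1 CPM and 11.9 against 13.3 CPM.

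**Figure D4:**
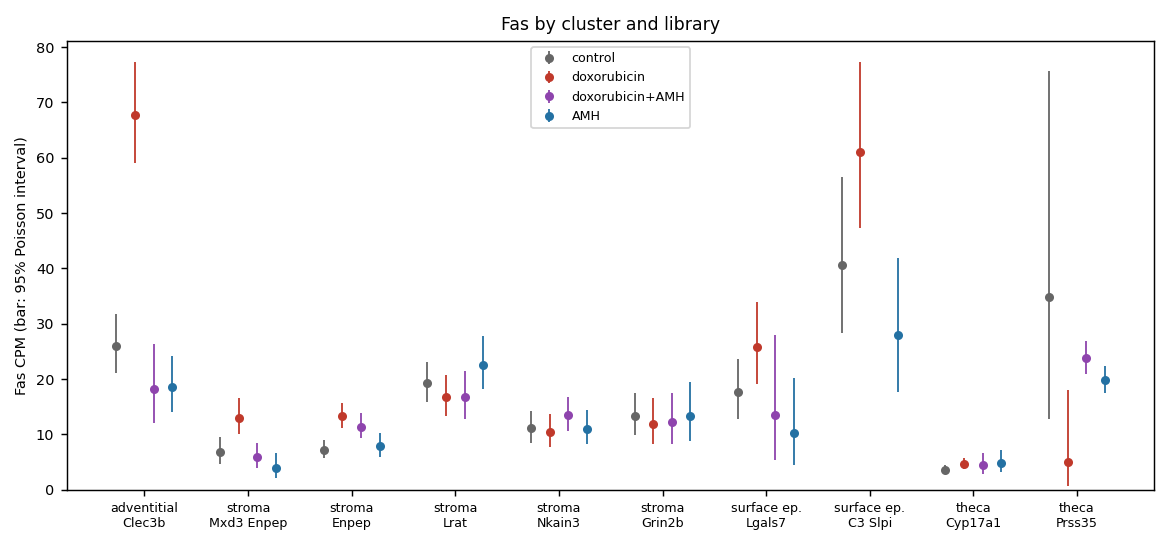
Fas level (vertical axis, CPM with 95% Poisson interval) in single clusters (horizontal axis, with a leading gene of each) and 4 libraries; libraries with fewer than 10 cells in a cluster are not drawn. The adventitial cluster stands at 67.7 CPM in doxorubicin and at most 26.0 CPM in the other libraries, and in both libraries with AMH the theca cluster led by Prss35 (23.8 and 19.7 CPM) lies above the one led by Cyp17a1 (4.41 and 4.87 CPM).

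Fas had another called difference in theca-like cells, the androgen-making layer around the follicle, and there it went with AMH and not with doxorubicin. It stood at 3.78 CPM (98 UMIs) in control, 4.65 CPM (93 UMIs) in doxorubicin, 17.2 CPM (278 UMIs) in doxorubicin+AMH and 15.5 CPM (282 UMIs) in AMH. The ratio of AMH to control was 4.11 (3.25 to 5.22), and 8.84% of all genes in the class were called higher. The class is made of different clusters in these libraries, so the ratio compares different cells: the cluster led by Cyp17a1 held 805, 570, 187 and 174 cells in library order, and the cluster led by Prss35 held 28, 26, 556 and 737. Within the Cyp17a1 cluster Fas was nearly level, at 3.58, 4.64, 4.41 and 4.87 CPM. Within the Prss35 cluster it stood at 34.8 CPM (6 UMIs), 4.99 CPM (2 UMIs), 23.8 CPM (254 UMIs) and 19.7 CPM (257 UMIs). Theca marker genes summed to 15025 CPM in control and 4850 CPM in AMH in the class, and stroma marker genes to 742 and 1369 CPM. In blood endothelium-like cells Fas went the other way, with 25.6 CPM (90 UMIs) in control and 14.8 CPM (45 UMIs) in AMH, a ratio of 0.580 (0.396 to 0.839) beside 11% of all genes called lower. It was past 1.5-fold in 8 of 11 settings of the processing. From control to AMH, stroma marker genes in that class summed to 240 and 1267 CPM, smooth muscle markers to 211 and 1169 CPM, macrophage markers to 23.0 and 165 CPM and erythroid markers to 16.2 and 303 CPM, and their part in the result was not tested.

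Over all classes, AMH against control had 5 pairs called higher and 1 lower, beside 4.96% and 7.75% of all genes. Doxorubicin+AMH against doxorubicin had 3 called higher and 12 lower, beside 8.13% and 9.34%. 2 of the 12, Tnfrsf10b in adventitial fibroblast and surface epithelium-like cells, had passed only through the doxorubicin library, and of the 45 pairs that passed without it 3 were called higher and 10 lower. Of all 12, the counting interval excluded 1 for 8, and 5 of the 12 were in surface epithelium-like cells, where 20.5% of all genes were called lower, and 3 in adventitial fibroblast-like cells.

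Tnfrsf10b had its highest mean levels over the libraries in the endothelia. In blood endothelium-like cells it stood at 22.4 CPM (79 UMIs) in control, 26.3 CPM (71 UMIs) in doxorubicin, 30.8 CPM (33 UMIs) in doxorubicin+AMH and 27.04 CPM (82 UMIs) in AMH, with no doxorubicin call. In lymphatic endothelium-like cells it stood at 14.96, 23.2, 25.8 and 16.96 CPM, where the doxorubicin call rested on 16 UMIs, its interval included 1 and 7.75% of all genes were called higher. The 2 classes overlap in their ranges. The gene passed the filter in 4 of the 10 classes. In granulosa-like cells, where it did not, it stood at 4.22 CPM (273 UMIs) in control, 6.09 CPM (367 UMIs) in doxorubicin, 4.78 CPM (298 UMIs) in doxorubicin+AMH and 4.13 CPM (305 UMIs) in AMH, and the doxorubicin ratio to control was 1.44 (1.23 to 1.70). Other classes below the filter also held UMIs, given in library order as description. Stroma-like cells stood at 2.29, 4.98, 3.71 and 2.25 CPM (73, 143, 97 and 47 UMIs). Theca-like cells stood at 1.16, 3.10, 2.60 and 1.21 CPM (30, 62, 42 and 22 UMIs). Smooth muscle-like cells stood at 3.34, 3.57, 3.67 and 2.31 CPM (41, 29, 40 and 28 UMIs).

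Casp8, the initiator that death receptors activate, separated the classes more than the treatments. Macrophage-like cells had the highest mean, with 68.7 CPM (111 UMIs) in control, 94.5 CPM (70 UMIs) in doxorubicin, 99.2 CPM (105 UMIs) in doxorubicin+AMH and 60.5 CPM (99 UMIs) in AMH. Blood endothelium followed at 44.2 to 70.1 CPM and lymphatic endothelium at 41.5 to 53.3 CPM, and the next class, surface epithelium, reached 28.5 CPM at most. Granulosa-like cells stood at 16.1, 18.2, 17.7 and 17.4 CPM, on 1041 to 1281 UMIs. The classes below granulosa, namely stroma, smooth muscle, adventitial fibroblast and theca, all lay between 6.57 and 10.4 CPM. Macrophage-like cells gave the only call of Casp8 under doxorubicin with AMH, a ratio to AMH of 1.64 (1.23 to 2.18), where 6.6% of all genes were called higher. From AMH to doxorubicin+AMH, theca marker genes in that class summed to 101 and 367 CPM. Stroma markers summed to 423 and 146 CPM and smooth muscle markers to 281 and 57.6 CPM, and their part in the result was not tested. Without AMH the macrophage ratio was 1.38 (1.00 to 1.87) and was not called. Casp8 lies at chr1:58795374-58847503 on the plus strand and overlaps Gm37760 on the same strand.

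Apaf1 was highest in lymphatic endothelium-like cells, at 133 CPM (321 UMIs) in control, 112 CPM (77 UMIs) in doxorubicin, 97.6 CPM (87 UMIs) in doxorubicin+AMH and 115 CPM (142 UMIs) in AMH, above the range of every other class. Blood endothelium followed at 61.4 to 87.7 CPM. Granulosa-like cells stood at 33.2, 34.8, 39.4 and 35.7 CPM on 2095 to 2637 UMIs, and no library differed from control by the called size. In macrophage-like cells Apaf1 stood at 46.4 CPM (75 UMIs), 63.5 CPM (47 UMIs), 26.5 CPM (28 UMIs) and 38.5 CPM (63 UMIs) in library order. Doxorubicin+AMH was the lowest of the 4 there, with a ratio to doxorubicin of 0.417 (0.251 to 0.680), beside 14.6% of all genes called lower. Lymphatic endothelium marker genes in the macrophage-like class summed to 47.0, 107, 10.4 and 46.4 CPM in library order, and their part in the result was not tested. Smooth muscle-like cells as a class had Apaf1 at 19.7 CPM in control and 24.6 CPM in doxorubicin, which was not called. Their main cluster, led by Acta2 and Myh11, stood at 21.4 CPM (200 UMIs) and 22.7 CPM (178 UMIs). A small smooth muscle cluster led by Des and Synpo2 had Apaf1 at 14.1 CPM (41 UMIs) in control and 75.3 CPM (22 UMIs) in doxorubicin, from 201 and 19 cells.

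Casp9, the caspase that the apoptosome activates, was low in every class, with class means of 4.89 CPM in adventitial fibroblast-like to 11.1 CPM in pericyte-like cells, and every class overlapped the next. Theca-like cells, where its count was largest after granulosa, stood at 11.7 CPM (304 UMIs), 11.7 CPM (234 UMIs), 7.94 CPM (128 UMIs) and 8.65 CPM (157 UMIs) in library order. The AMH libraries were the lower there, with a ratio of AMH to control of 0.737 (0.604 to 0.896), which was not called. Doxorubicin calls in blood endothelium (14 and 23 UMIs) and macrophage-like cells (11 and 9 UMIs) rested on few counts, and 4.31% and 8.03% of all genes were called higher there. In blood endothelium Casp9 was also called higher in AMH than in control, on 20 and 14 UMIs with an interval that included 1, beside 8.31% of all genes. Casp9 lies at chr4:141793612-141815976 on the plus strand and overlaps Cela2a and Ctrc on the other strand.

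Casp6, an executioner that cleaves nuclear lamins, was higher with AMH in more classes than any other of the 6 genes. In all 10 classes its level was higher in AMH than in control, which held for 1.53% of the 6950 genes that passed in every class. It was called in 3 classes. Surface epithelium-like cells stood at 29.3 CPM (97 UMIs) in control, 23.9 CPM (73 UMIs) in doxorubicin, 110 CPM (60 UMIs) in doxorubicin+AMH and 79.8 CPM (128 UMIs) in AMH. Both libraries with AMH lay above both without. The 2 clusters of the class were not alike: from control to AMH, Casp6 stood at 34.0 CPM (83 UMIs) and 144 CPM (112 UMIs) in the Lgals7 cluster, and at 16.2 CPM (14 UMIs) and 19.4 CPM (16 UMIs) in the cluster led by C3 and Slpi, which held 34 of the 64 AMH cells. In the class the ratio of AMH to control was 2.72 (2.07 to 3.58), where 7.29% of all genes were called higher. From control to AMH, stroma marker genes in the class summed to 2448 and 5043 CPM and oviduct epithelium markers to 2555 and 923 CPM, and their part in the result was not tested. Pericyte-like cells stood at 22.3 CPM (25 UMIs), 37.9 CPM (33 UMIs), 23.5 CPM (14 UMIs) and 62.7 CPM (40 UMIs), high in the AMH library alone, with a ratio of 2.82 (1.67 to 4.84) beside 7.22% of all genes. Granulosa marker genes in the pericyte-like class summed to 297, 254, 899.7 and 917 CPM, and their part in the result was not tested. Theca-like cells stood at 15.6 CPM (405 UMIs), 14.7 CPM (294 UMIs), 22.4 CPM (362 UMIs) and 29.9 CPM (543 UMIs), with a ratio of 1.91 (1.68 to 2.18) beside 8.84% of all genes. Within the theca cluster led by Cyp17a1 the values were 15.6, 14.5, 16.2 and 21.1 CPM, a narrower span than in the class. In the Prss35 cluster they were 23.2 CPM (4 UMIs), 22.4 CPM (9 UMIs), 25.7 CPM (274 UMIs) and 33.4 CPM (435 UMIs). That cluster held 28 control and 737 AMH cells, so the class ratio compares different mixes of cells.

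Casp6 had its highest mean over the libraries in granulosa-like cells, the somatic cells that surround and feed the oocyte, though the range of surface epithelium-like cells overlapped theirs. It stood at 77.9 CPM (5040 UMIs) in control, 72.7 CPM (4377 UMIs) in doxorubicin, 92.5 CPM (5770 UMIs) in doxorubicin+AMH and 116 CPM (8532 UMIs) in AMH. The ratio of AMH to control was 1.49 (1.43 to 1.54), just inside the called size, and 0.932% of all genes in the class were called higher. The difference was uneven over granulosa clusters. In the cluster led by Cdh12, Gatm and Slc18a2, which also has Amh itself among its 10 leading genes, Casp6 stood at 74.9 CPM (1194 UMIs), 70.8 CPM (1034 UMIs), 209.5 CPM (1231 UMIs) and 235 CPM (1824 UMIs), and the log2 ratio of AMH to control was 1.64 (1.54 to 1.76). The dividing cluster led by Ube2c stood at 56.7, 51.8, 80.5 and 85.0 CPM, and the Inhba cluster, with Cyp19a1 and Hsd17b1 among its leading genes, at 40.2, 36.4, 48.1 and 60.7 CPM. The Shroom3 cluster, at 122, 117, 120.5 and 149.8 CPM, was highest in the AMH library, with doxorubicin+AMH level with control. In the Cdh12 cluster a Casp6 UMI was held after thinning by 12.3% of cells in control (9.28 to 15.9) and 13.1% in doxorubicin (9.73 to 17.04). With AMH the shares were 36.0% (29.1 to 43.3) and 30.5% (25.2 to 36.4). Without thinning the shares were 78.9%, 81.0%, 88.5% and 85.3%. Clusters found almost only in doxorubicin hold related cells: one led by B230209E15Rik, Tub and Cdh12 had Casp6 at 43.0 CPM (51 UMIs, 177 cells) there, and one led by Amh had it at 133 CPM (110 UMIs, 78 cells).

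**Figure D5:**
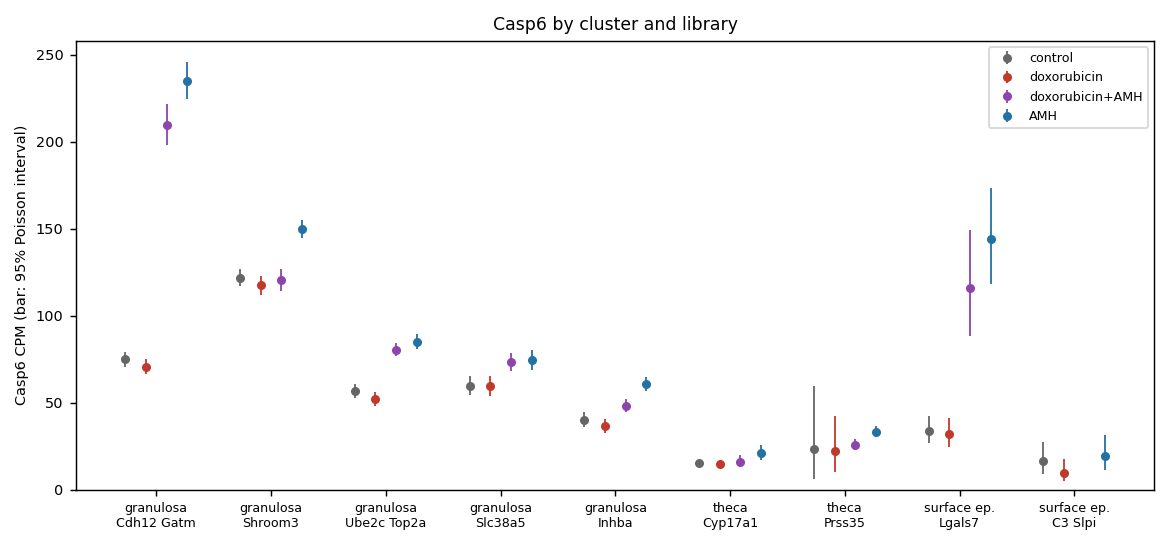
Casp6 level (vertical axis, CPM with 95% Poisson interval) in granulosa, theca and surface epithelium clusters (horizontal axis, with leading genes) and 4 libraries; libraries with fewer than 10 cells in a cluster are not drawn. In the granulosa cluster led by Cdh12 and Gatm and in the surface epithelium cluster led by Lgals7, both libraries with AMH (209.5 and 235 CPM; 116 and 144 CPM) lie above both without (74.9 and 70.8 CPM; 34.0 and 31.9 CPM).

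The Casp6 difference between doxorubicin+AMH and doxorubicin was less even: it was above 0 in 6 of 10 classes, which 31.9% of genes match or exceed. In surface epithelium-like cells the log2 ratio was 2.16 (1.69 to 2.71), where 13.2% of all genes were called higher. Pericyte (23.5 against 37.9 CPM) and lymphatic endothelium (21.3 against 33.4 CPM) were called lower, on 14 to 33 UMIs each, beside 12.6% and 10.8% of all genes. Under doxorubicin alone Casp6 stayed near control in most classes, and the single call was in pericyte-like cells, at 37.9 against 22.3 CPM, beside 6.58% of all genes. Erythroid-like cells, taken as background, held Casp6 at 5.81 CPM (2 UMIs) in control, 17.3 CPM (7 UMIs) in doxorubicin, 11.3 CPM (5 UMIs) in doxorubicin+AMH and 21.7 CPM (4 UMIs) in AMH. These levels are close to those of the classes with the least Casp6, such as the adventitial class, and the part of free RNA in their values was not tested.

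The 250 bases before the start site of Casp6 are shown to set them beside those of Fas and Apaf1, again from RefSeq on GRCm38.p6, at chr3:129901165-129901414 on the plus strand, with the GC box in capitals.
Casp6: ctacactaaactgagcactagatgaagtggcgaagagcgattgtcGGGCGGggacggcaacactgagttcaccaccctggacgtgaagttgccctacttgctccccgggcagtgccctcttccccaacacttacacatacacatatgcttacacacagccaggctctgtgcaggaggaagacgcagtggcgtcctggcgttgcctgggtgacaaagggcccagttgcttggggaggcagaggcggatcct
It holds 1 GC box, 205 bases before the start site, no match to the single-unit p53 consensus motif, and a GC content of 58.4%. The gene lies at chr3:129901425-129914103 on the plus strand. Pla2g12a, a secreted phospholipase gene, ends 5599 bases before it on the same strand, and the 3′ end of Mcub, on the opposite strand, lies 856 bases after it. Pla2g12a was also the gene whose level was most like that of Casp6 over 40 profiles of class and library, with a Pearson correlation of 0.829 among 10596 genes. In the Cdh12 granulosa cluster Pla2g12a stood at 77.7, 84.4, 166 and 150 CPM, and in the Lgals7 surface epithelium cluster at 43.0, 62.3, 114 and 136 CPM. In theca-like cells it stood at 22.0, 22.1, 25.6 and 27.2 CPM. In both clusters both libraries with AMH lay above both without for each of the neighbours, while the order within those pairs was not always the same.

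Among the other genes most like each member over the same 40 profiles, which share libraries and depth, were Csf1 (0.873) and Tnfrsf1a (0.846) for Fas and Gm9844 (0.851) for Tnfrsf10b. For Casp8 they were Smagp (0.924) and Irf2 (0.920), for Apaf1 Dennd2c and Zswim6 (both 0.858), and for Casp9 Cisd2 (0.700) and Gpank1 (0.669). Tnfrsf1a, a receptor of tumour necrosis factor, is itself a death domain receptor. Among the 6 genes the closest pair was Tnfrsf10b with Apaf1 (0.618), followed by Casp8 with Apaf1 (0.581). Fas and Tnfrsf10b had a correlation of 0.05 over all profiles.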

How the data were processed

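Single-cell RNA was measured in 4 pooled ovary libraries, 1 per treatment. The deposited matrices hold raw UMI counts per gene and barcode. Per the file headers they were made by the authors with Cell Ranger, whose version is 7.0.0, on mm10 per the submitters' processing notes. Whether intronic reads were counted is not given in the sources used here. The genes and gene lists were chosen with earlier results of these data known.

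Barcodes under 1000 UMIs or over 20% mitochondrial UMIs were removed. Scrublet's own threshold called 0 or 1 doublets per library and so did not work here; the highest-scoring cells were removed instead, at 0.8% per 1000 cells, which left 6078 to 7998 cells. Cells were clustered with scanpy 1.11.5 (2000 variable genes without the listed genes, 30 components, 20 neighbours, Leiden resolution 1, no batch correction). A cluster took a class name when at least 3 markers and 60% of a list exceeded the median cluster by 1 log2 unit or more and were found in at least 10% of its cells. Where several lists qualified, the one with the most markers among the cluster's 10 leading genes was taken. 2 of 32 clusters stayed unnamed, since their cells' UMI counts were under 33.3% of their libraries' medians and none of their 10 leading genes was a marker. Ratios of summed counts have exact conditional (Clopper-Pearson) intervals of 2 Poisson counts from scipy 1.17.1, and the interval of a log2 ratio leaves out the added 1 CPM. The ratio script was tested on simulated data. Named genes outside the 6 are the Cdkn1a, Mdm2, Ccng1 and Bax reference genes, the gene furthest from 0 on each side of a list, and for each of the 6 the 3 most alike genes (the text gives up to 2); Casp2, Tnfsf10, Fasl and Mcub were named after their values were seen, and some genes the rule names are not reported here. Promoters were found for 5 of the 6 genes in the RefSeq table. Alternatives covered cell filters, doublets, clustering, gating by markers, scaling, pseudocount, low-count filter and cell weighting.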

Additional observations from a re-analysis of the deposited data

Results flagged for a closer look

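Fas went in opposite directions between cell classes under the same contrast. For AMH against control its log2 ratio was 1.79 in theca-like cells and -0.75 in blood endothelium-like cells, each with a counting interval that excludes 0. For doxorubicin+AMH against doxorubicin it was 1.69 in theca-like cells, -1.84 in adventitial fibroblast-like cells and -1.04 in surface epithelium-like cells. These differences between classes were not tested, since each treatment has 1 library. The theca values compare libraries in which different clusters make up the class.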

How the results depend on the processing

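Each treatment is 1 pooled library, so no result has a replicate check and treatment cannot be told apart from library. No paired analysis was possible because each group has 1 library. With each cell weighted equally in place of summed UMIs, 17 pairs were past 1.5-fold in doxorubicin+AMH against AMH in place of 8 (8 higher, 9 lower), and 11 in AMH against control in place of 6 (8 higher, 3 lower); the cause was not tested. The counts for doxorubicin against control ranged from 9 to 17 around 12, and for doxorubicin+AMH against doxorubicin from 12 to 19 around 15. 3 log2 ratios reversed: Tnfrsf10b in adventitial fibroblast-like cells, doxorubicin+AMH against AMH, was -0.96 with cells gated by marker UMIs, Fas in pericyte-like cells, doxorubicin+AMH against doxorubicin, was -0.058 with at most 10% mitochondrial UMIs, and Tnfrsf10b in surface epithelium-like cells, doxorubicin+AMH against AMH, was -0.10 with doublets left in. The doxorubicin ratios to control of Fas (1.16 to 1.42) and Apaf1 (0.89 to 1.17) in adventitial fibroblast-like cells were past 1.5-fold in 11 of 11 settings, as was Casp6 in AMH against control in surface epithelium-like (1.30 to 2.05), pericyte-like (0.97 to 1.55) and theca-like cells (0.76 to 1.19). All settings reuse the same libraries. Tnfrsf10b in adventitial fibroblast-like cells ranged from 2.06 to 3.16 for doxorubicin against control. It passed the filter there only through the doxorubicin library, so this range is a description. For the same comparison Fas in surface epithelium-like cells was past 1.5-fold in 9 of 11 settings. Tnfrsf10b in lymphatic endothelium-like cells was past it in 6 of 11 (0.11 to 1.14). Casp9 was past it in 8 of 11 in blood endothelium-like cells and in 8 of 11 in macrophage-like cells. In AMH against control, Casp9 in blood endothelium-like cells was past it in 7 of 11. Casp6 in adventitial fibroblast-like cells, AMH against control, moved from 0.58 to 1.19 with doublets left in. Of the cells that the marker gate called adventitial, 38.1% were in the adventitial cluster. Leaving out clusters with fewer than 10 cells in a library was chosen after seeing the data.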

Other observations

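Classes with fewer than 30 cells in a library, unnamed clusters and erythroid-like cells were left out of the comparisons. In T or NK lymphocyte-like cells Casp8 stood at 105 CPM (61 UMIs) in control, 74.9 CPM (15 UMIs) in doxorubicin, 59.98 CPM (26 UMIs) in doxorubicin+AMH and 56.0 CPM (21 UMIs) in AMH, from 70, 25, 63 and 48 cells. Casp6 in the same cells stood at 12.03 CPM (7 UMIs), 19.97 CPM (4 UMIs), 23.1 CPM (10 UMIs) and 88.0 CPM (33 UMIs), highest in AMH. B lymphocyte-like cells held Apaf1 at 73.7 CPM (37 UMIs) in control and 49.96 CPM (20 UMIs) in AMH. Oviduct epithelium-like cells, of which the doxorubicin library held 1, had Casp6 at 57.7 CPM (control), 36.7 CPM (doxorubicin+AMH) and 55.3 CPM (AMH). The 2 unnamed clusters together held Casp6 at 42.6, 35.8, 89.6 and 116 CPM in the order of the libraries.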
